A study of Bos taurus with 24 samples.

Results

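The genes of the proteasome are the 48 genes of the deposited bovine count table whose symbol is PSMA, PSMB, PSMC, PSMD, PSME, PSMF or PSMG followed by a number, out of 27607 genes in all. They were chosen by symbol and not by any measured value, though with earlier results of these data known. Every cow gene with such a symbol in the RefSeq table was found. The members are 14 constitutive core genes (PSMA1 to PSMA7 and PSMB1 to PSMB7), the 3 inducible core genes PSMB8, PSMB9 and PSMB10, and the germline and thymus core genes PSMA8 and PSMB11. They also hold 6 ATPases of the regulatory particle (PSMC1 to PSMC6), 11 other subunits of its base and lid, 3 of its assembly chaperones (PSMD5, PSMD9 and PSMD10), 4 core assembly chaperones (PSMG1 to PSMG4), and 5 activators and inhibitors (PSME1 to PSME4 and PSMF1). Of the 14298 genes with enough counts to be tested, 46 were members, and PSMA8 and PSMB11 were not.

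RNA was sequenced in 24 libraries of cow granulosa cells, the somatic cells of the ovarian follicle. The late antral stage gave 5 libraries of cumulus cells (late_CC), which wrap the oocyte, and 5 of mural granulosa cells (late_MGC), which form the lining of the wall. The early antral stage gave 5 libraries of each kind (early_CC and early_MGC), and secondary follicles, before the antrum forms, gave 4 libraries of granulosa cells (secondary_GC). The design text ties these cell types to a question on their ability to regrow transzonal projections, the extensions that reach the oocyte. No treatment, breed, age or animal is named for a library, nor how many follicles it holds, so every p-value measures the spread between these libraries only, which may be technical.

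The proteasome degrades proteins tagged with ubiquitin. Its core is a barrel of stacked rings of alpha and beta subunits, in which PSMB5, PSMB6 and PSMB7 carry the catalytic sites, and PSMB8, PSMB9 and PSMB10 can replace them to form the immunoproteasome, which interferon induces in many cell types. The regulatory particle caps the barrel: its base of ATPases unfolds the substrate, and its lid removes the ubiquitin chain.

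Total counts ran from 8379801 to 31762400 per library. The 8 granulosa marker genes were detected in every group, and the oocyte gene BMP15 had no count in any of the 5 groups. The other oocyte markers were not all at 0: the 11 genes of that list summed to 15.9 to 90.03 CPM in late_CC (median 87.6), against 18.4 to 41.2 CPM in early_CC (median 33.2). KIT was the most abundant of them in both, at 58.9 CPM in late_CC and 15.2 CPM in early_CC, and BMP15, DDX4 and ZAR1 were at 0 in both. The theca and stroma markers summed to 146 to 671 CPM in late_CC (median 606), against 186 to 760.0 CPM in early_CC (median 319.9), with CYP17A1 at 0 in both. The most abundant of them was INSL3 in late_CC, at 402 CPM on average, and LUM in early_CC, at 211 CPM. Endothelium markers had median sums of 6.525 CPM in late_CC, 23.05 CPM in early_CC, 3.56 CPM in late_MGC and 40.4 CPM in early_MGC. What part these markers have in the late_CC or late_MGC changes was not tested. Among the marker genes of blood and immune cells, which carry immunoproteasomes, the summed level was at most 11.2 CPM (counts scaled to 1000000 per library) in any library. Libraries late_MGC 3, late_CC 3 and early_MGC 4 stood apart from their groups, with a mean correlation to the other libraries of the group of 0.861, 0.905 and 0.906. Library late_MGC 3 summed only 363 CPM over the granulosa markers, against a group median of 9328 CPM, and 2109 CPM over theca and stroma markers, against a median of 348 CPM.

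Proteasome genes took between 0.56% (late_CC 3) and 1.9% (late_MGC 1) of a library's counts. The mean share was 1.18% in secondary_GC, 1.5% in early_CC, 1.0% in early_MGC, 0.843% in late_CC and 1.44% in late_MGC libraries. Most of it was the constitutive core, whose 14 genes summed to 7148 ± 1278 CPM in secondary_GC (SD, n = 4), 9535 ± 607 CPM in early_CC, 6446 ± 1799 CPM in early_MGC, 4478 ± 1631 CPM in late_CC and 9541 ± 2506 CPM in late_MGC (SD, n = 5 each). The lowest core sum of any library was the 2560 CPM of late_CC 3, and the highest the 13350 CPM of late_MGC 1. Without the libraries that stood apart, the core summed to 4958 ± 1419 CPM in late_CC and 9782 ± 2826 CPM in late_MGC (SD, n = 4 each). In bulk RNA, fewer cells of a type and less RNA per cell cannot be told apart.

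**Figure D1:**
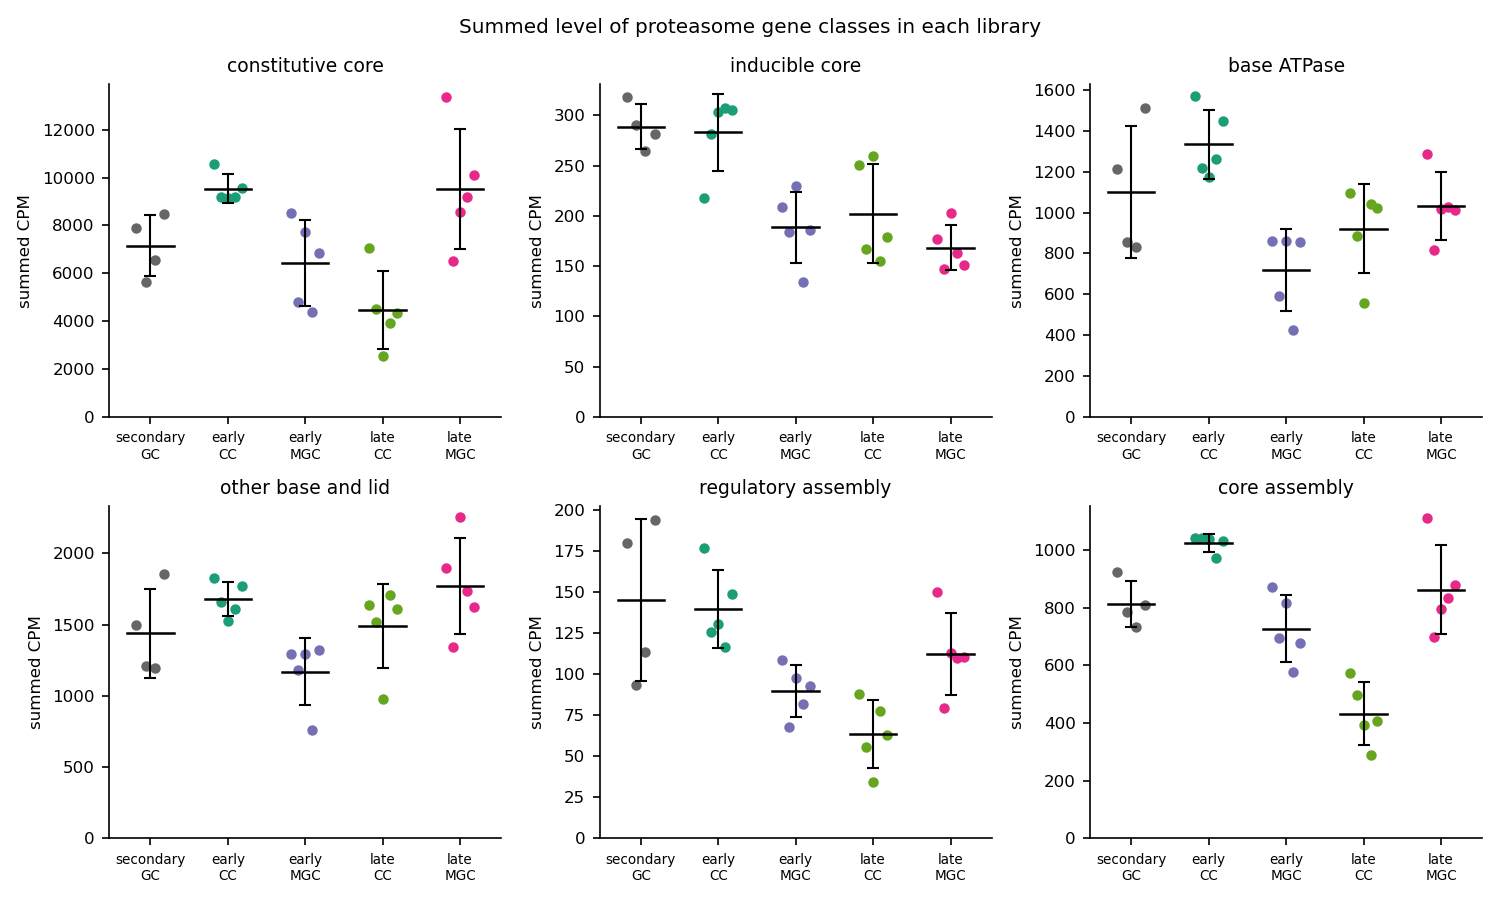
Summed CPM of 6 classes of proteasome genes (vertical axes, from 0) in each library, by group (horizontal axes); points are libraries, and lines with bars are means and SDs. The constitutive core ran from 2560 to 7056 CPM in late_CC and from 9132 to 10570 CPM in early_CC libraries, with no overlap.

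Compared per exon length (TPM, counts per base of exon scaled to 1000000 per library), the median core gene stood above the median gene of the regulatory particle in each of the 5 groups. In early_CC the 14 core genes had mean levels from 318 TPM (PSMA2) to 1843 TPM (PSMB1), with a median of 658 TPM. The 6 ATPase genes ran from 70.4 TPM (PSMC6) to 271 TPM (PSMC2), with a median of 116 TPM, and the 11 other base and lid genes from 21.6 TPM (PSMD13) to 288 TPM (PSMD8), with a median of 70.3 TPM. PSMA2 and PSMB1 were the lowest and highest core genes, and PSMC6 and PSMC2 the lowest and highest ATPases, in every group. PSMA2 shares 12.9% of its exonic bases with another annotated gene, which may affect its count. In early_MGC it was at 247 TPM, close to PSMB5 at 254 TPM, so its place as the lowest is not firm there. The classes overlapped in some groups: in late_CC PSMA2 was at 144 TPM, below PSMD7 at 215 TPM and PSMC2 at 152 TPM. PSMA8, which replaces PSMA7 in male germ cells, had no count in early_MGC and late_CC, which allows up to 0.0389 and 0.0361 CPM (3 counts over the group, counting error only). In the other groups PSMA8 had 2 to 7 counts in all, and PSMB11, a core subunit of the thymic cortex, had 1 to 9 counts in each group.

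Cumulus cells of late antral follicles were set against those of early antral follicles to ask how expression changes as the follicle grows. Of the 46 members, 30 were lower and 2 were higher in late_CC than in early_CC libraries. Over all tested genes 45.2% were called, 22.7% as lower and 22.5% as higher; a gene was called where its adjusted p was under 0.05 in edgeR's quasi-likelihood test. At levels of 20 CPM or more on average, where nearly all members stood, 33.5% of tested genes were called lower. In 29 members no late_CC library overlapped the early_CC range, against 35.4% of all tested genes. The median log2 fold change of the members was -0.89, against 0.04 over all tested genes. Without the 3 libraries that stood apart, 29 members fell and 4 rose.

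Of the 14 constitutive core genes 13 fell, with log2 fold changes from -1.48 to -0.58 over the 14 and a median of -1.05. The gene not called was PSMA3, an alpha ring subunit, at -0.58 (adjusted p = 0.083, edgeR). PSMB6, which carries the caspase-like site, had 470, 320.4, 198, 235 and 282 CPM in the late_CC libraries, against 877, 841, 831, 774 and 914 CPM in early_CC. All late_CC values were below all early_CC values, and PSMB6 fell by 1.48 ± 0.24 on the log2 scale (SE; edgeR, adjusted p = 3.5e-05). PSMB5, the chymotrypsin-like subunit, had 524, 362, 210.3, 313 and 385 CPM in late_CC, against 923, 791, 791, 730.1 and 848 CPM in early_CC. PSMB7, the trypsin-like subunit, had 476, 337, 196, 304 and 339.8 CPM in late_CC, against 667, 649, 659, 621 and 640.1 CPM in early_CC. Neither gene overlapped between the groups; PSMB5 fell by 1.18 ± 0.26 (edgeR, adjusted p = 0.00061) and PSMB7 by 0.96 ± 0.23 (edgeR, adjusted p = 0.0013).

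Chaperones that assemble the particle were also lower. All 4 core chaperones fell, with a median log2 fold change of -1.06, and all 3 regulatory chaperones fell, with a median of -1.34. The core chaperones have 372 to 1027 bases of exon and the regulatory chaperones 1305 to 2209. Of genes averaging 20 CPM or more, 70.0% below 1000 bases were called lower, with a median of -1.01. From 1000 to 2000 bases the share was 56.7%, with a median of -0.69. PSMG1, which pairs with PSMG2 to dock the first alpha subunits, had 161, 98.1, 79.9, 94.5 and 92.9 CPM in late_CC, against 376, 280.0, 357, 289 and 363 CPM in early_CC. No library overlapped, and PSMG1 fell by 1.65 ± 0.22 on the log2 scale (edgeR, adjusted p = 2.9e-06).

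In the regulatory particle itself calls went in both directions. Among the ATPases 4 of 6 fell (PSMC1, PSMC2, PSMC3 and PSMC5), with a median log2 fold change of -0.52 over the 6. Among the 11 other base and lid genes PSMD4, PSMD8 and PSMD13 fell and PSMD1 rose, with a median of -0.35. PSMD4 encodes a ubiquitin receptor, and PSMD8 and PSMD13 encode lid subunits. PSMD1, a scaffold of the base, had 267, 262, 159.7, 331 and 284 CPM in late_CC, against 181, 189.5, 198, 187 and 174 CPM in early_CC. It rose by 0.48 ± 0.16 (edgeR, adjusted p = 0.016), with late_CC 3 below all early_CC libraries and the other 4 above them. PSMC4, an ATPase at 311, 211, 109, 269 and 317 CPM in late_CC against 213, 191, 208, 227 and 208 CPM in early_CC, was not called (log2 fold change 0.21, adjusted p = 0.51, edgeR).

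Among the activators and the inhibitor, PSME4 rose and PSME2 and PSMF1 fell. PSME4 encodes a large single-chain activator known in mice for its part in histone loss in spermatids. It had 113, 125, 126, 134 and 104.5 CPM in late_CC, against 57.7, 51.5, 62.2, 65.9 and 51.2 CPM in early_CC, with every late_CC library higher. The log2 fold change of PSME4 was 1.07 ± 0.25 (edgeR, adjusted p = 0.0013). PSME1 and PSME2 form the interferon-inducible activator ring that opens the core. PSME1 had 635, 458, 546, 377 and 511 CPM in late_CC, against 483, 564, 624, 586 and 615 CPM in early_CC, overlapped and was not called (log2 fold change -0.16, adjusted p = 0.54, edgeR). Its partner PSME2 had 204, 129, 95.8, 126 and 152 CPM in late_CC, against 239.7, 234, 223, 234 and 251 CPM in early_CC, without overlap, and fell by 0.73 ± 0.21 (edgeR, adjusted p = 0.0057). Both depended on length: with offsets corrected for exon length PSME1 was called higher at 0.59 (edgeR, adjusted p = 0.0048) and PSME2 was at 0.065 and not called (adjusted p = 0.69, edgeR). The difference between the partners was not tested. PSME3, the nuclear activator, ran from 32.2 to 55.8 CPM in late_CC, against 46 to 54 CPM in early_CC, and was not called (adjusted p = 0.48, edgeR), but was lower at -0.44 with corrected offsets (adjusted p = 0.043, edgeR). PSMF1, an inhibitor of the core, ran from 20.2 to 34.8 CPM in late_CC, against 46.2 to 62.3 CPM in early_CC, and fell by 0.94 ± 0.22 (edgeR, adjusted p = 0.001).

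The changes in late_CC against early_CC followed exon length across all genes, and this touches every count above. Over genes averaging 20 CPM or more, the median log2 fold change was -1.01 below 1000 bases of exon, -0.69 from 1000 to 2000 bases, 0.14 from 2000 to 4000 bases and 0.67 above that. The members of these bins had medians of -1.06, -0.86, -0.38 and 1.07, where the last is PSME4 alone. Core genes were short, from 810 to 2127 bases, and of the 2028 genes in that range 55.6% were called lower, with a median of -0.69. With offsets corrected in each library for the trend with exon length, 20 members were called, 15 lower and 5 higher, against 39% of all tested genes called, a share near that of the members. The members' median log2 fold change was then -0.25, against 0.06 over all tested genes. Part of the length trend remained. From the shortest to the longest, the same bins of all genes had medians of -0.25, -0.16, 0.02 and 0.14. Called lower in them were 35.1%, 32.1%, 23.6% and 17.2%. Their members had medians of -0.26, -0.21, -0.37 and 0.43. Members below 2000 bases thus stood near genes of their length, and those from 2000 to 4000 bases stood lower. Only 14 of the members called before were then called in the same direction, all of them lower.

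In that length-corrected fit 6 of the 14 core genes were lower, among them PSMB5 at -1.03 and PSMB6 at -0.69, while PSMB7 at -0.21 was not called (adjusted p = 0.22, edgeR). All 3 regulatory chaperones remained lower, and of the core chaperones only PSMG1 at -0.88 (edgeR, adjusted p = 1.8e-05). PSMC3 at -0.96 was the 1 ATPase called. Neither PSME4 at 0.43 (adjusted p = 0.1, edgeR) nor PSMD1 at 0.26 (adjusted p = 0.18, edgeR) was called, nor PSMF1 at -0.30 (adjusted p = 0.15, edgeR). What the length trend reflects was not tested.

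**Figure D2:**
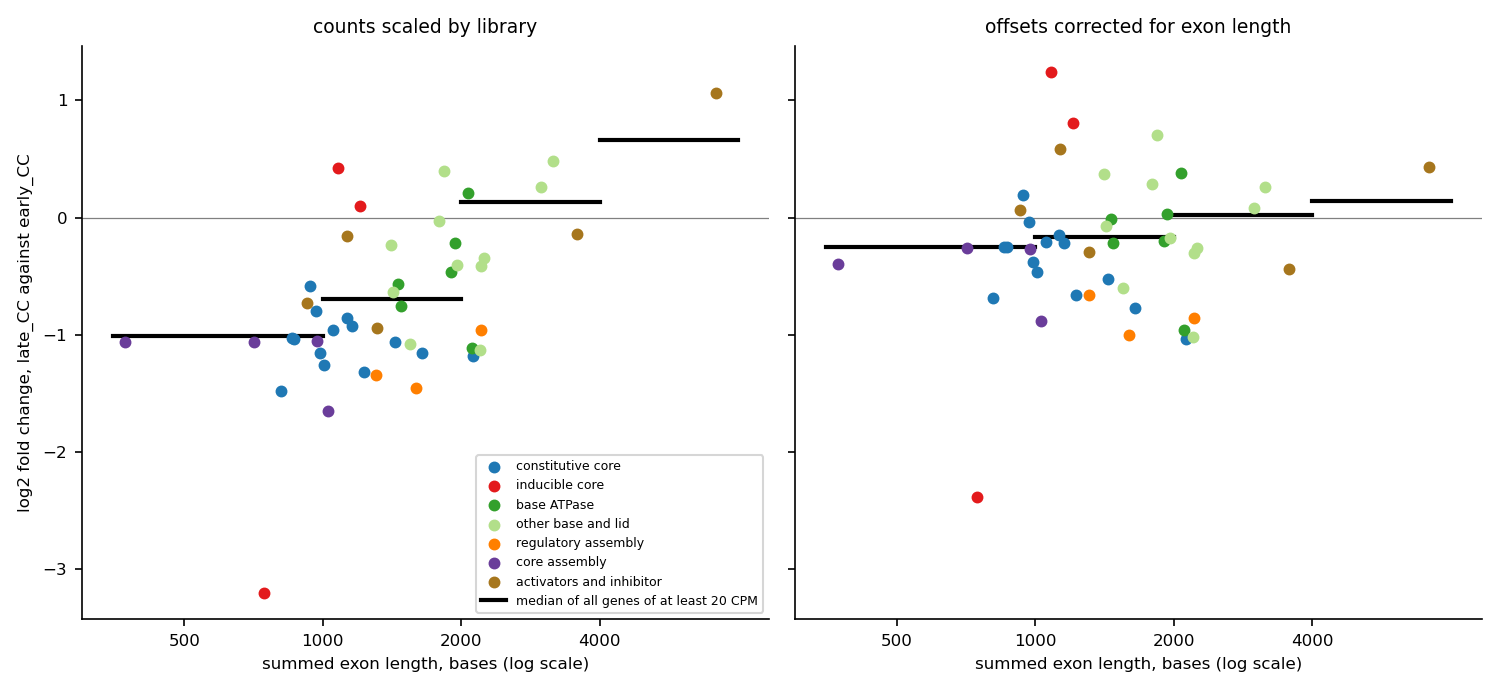
Log2 fold change of 46 proteasome genes in late_CC against early_CC (vertical axis) by summed exon length in bases (horizontal axis, log scale), as tested (left) and with offsets corrected for length (right); points are genes coloured by class, and black bars are medians of all genes of at least 20 CPM in 4 length bins. On the left the bars go from -1.01 for the shortest to 0.67 for the longest genes, and PSMB9 at -3.20 lies below all other members in both panels.

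Of the 3 inducible catalytic genes PSMB9 was called and PSMB8 and PSMB10 were not. PSMB9 and PSMB8 are neighbours on chromosome 23 (ARS-UCD1.2, chr23:7186813-7193342 and chr23:7173038-7176410), and PSMB10 lies on chromosome 18 (chr18:35417757-35421332). PSMB9, the counterpart of PSMB6, had 17.3, 8.25, 11.1, 10.2 and 9.58 CPM in late_CC, against 85.9, 98.2, 109.9, 115 and 119.7 CPM in early_CC. Every late_CC library was below every early_CC library, and early_CC stood 9.21-fold above late_CC. The log2 fold change of -3.20 ± 0.23 was the largest of any member in any comparison (edgeR, adjusted p = 1e-09), and PSMB9 remained lower at -2.39 in the length-corrected fit (edgeR, adjusted p = 2e-09) and at -3.22 without the 3 libraries that stood apart (edgeR, adjusted p = 4.8e-10).

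PSMB8, the counterpart of PSMB5, had 25.9, 17.1, 42.8, 24.2 and 20.1 CPM in late_CC, against 14.7, 10.6, 23.9, 24.1 and 25.9 CPM in early_CC. The groups overlapped and PSMB8 was not called (log2 fold change 0.42, adjusted p = 0.2, edgeR). PSMB10, the counterpart of PSMB7, had 207, 142, 206, 121 and 149 CPM in late_CC, against 117, 172, 170.1, 168 and 160.1 CPM in early_CC, and was not called (log2 fold change 0.10, adjusted p = 0.68, edgeR). With length-corrected offsets both were called higher, PSMB8 at 1.25 (edgeR, adjusted p = 0.0019) and PSMB10 at 0.81 (edgeR, adjusted p = 0.0011).

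Set against its constitutive counterpart per exon length, PSMB9 amounted to 20.9 ± 4.59 per 100 of PSMB6 in secondary_GC (SD, n = 4), 13.6 ± 2.05 in early_CC, 14.1 ± 2.2 in early_MGC, 4.26 ± 1.24 in late_CC and 5.99 ± 1.82 in late_MGC (SD, n = 5 each). All 10 late antral libraries were below all 14 others. PSMB8 amounted to 16.9 ± 13.2 per 100 of PSMB5 in late_CC, between 9.27 and 40.1, and no other library passed 8.09. Without late_CC 3, which held the 40.1, the late_CC mean was 11.1 ± 2.76 (SD, n = 4). PSMB10 amounted to 47.8 ± 24.4 per 100 of PSMB7 in late_CC, or 36.9 ± 1.66 without late_CC 3, which stood at 91.4; in the other groups the mean ran from 18.5 per 100 in late_MGC to 29.2 per 100 in secondary_GC. These ratios were given no test, and the constitutive genes they are set against fell in late_CC.

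**Figure D3:**
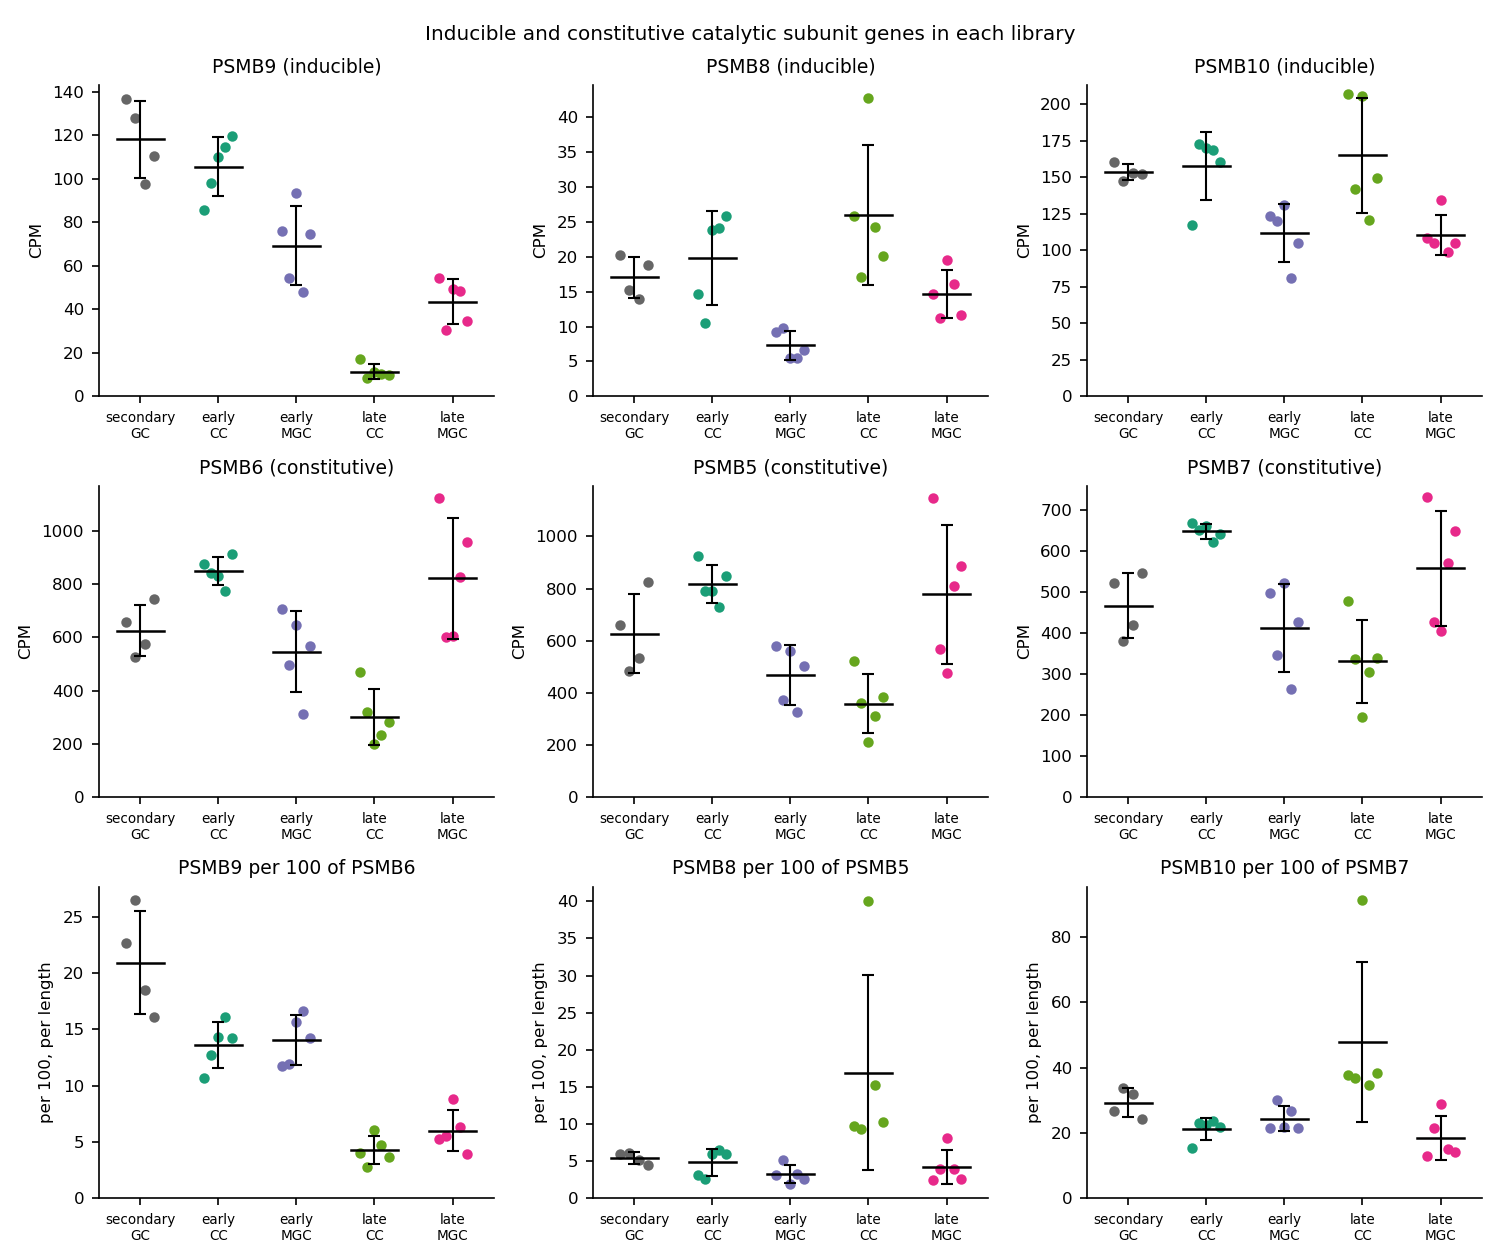
Levels of the inducible genes PSMB9, PSMB8 and PSMB10 (top row, CPM), of their constitutive counterparts PSMB6, PSMB5 and PSMB7 (middle row, CPM) and of the first per 100 of the second, per exon length (bottom row), in each library by group; points are libraries, and lines with bars are means and SDs. PSMB9 ran from 8.25 to 17.3 CPM in late_CC, below the lowest library of any other group at 30.4 CPM.

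Mural cells of late antral follicles were then set against mural cells of early antral follicles. Here 20 members rose and none fell, against 19.1% of all tested genes called and 9.76% called higher. At levels of 20 CPM or more on average 23.7% of tested genes were called, and 16.7% were called higher. The median log2 fold change of the members was 0.56, against 0.05 over all tested genes and 0.20 over those averaging 20 CPM or more. In 7 members no late_MGC library overlapped the early_MGC range, against 10.6% of all tested genes. In the core 5 of 14 genes rose (PSMA5, PSMA7, PSMB3, PSMB5 and PSMB6), among the ATPases 4 of 6 (PSMC1, PSMC3, PSMC4 and PSMC5), and among the other base and lid genes 7 of 11 (PSMD1, PSMD2, PSMD6, PSMD7, PSMD8, PSMD11 and PSMD14). PSMB8, PSMD10, PSME3 and PSMG1 completed the 20. Without the 3 libraries that stood apart 20 members were also called, against 23.8% of all tested genes.

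PSMA7, an alpha ring subunit, had 1237, 652, 1026, 971 and 1005 CPM in late_MGC, against 542, 411, 509, 275 and 494 CPM in early_MGC. Every late_MGC library was higher, and PSMA7 rose by 1.26 ± 0.21 (edgeR, adjusted p = 0.00015). PSMB8 had 14.7, 11.3, 19.6, 16 and 11.7 CPM in late_MGC, against 9.2, 9.86, 5.51, 5.49 and 6.62 CPM in early_MGC, without overlap. It rose by 1.1 ± 0.27 (edgeR, adjusted p = 0.0059), while PSMB9 was at 30.4 to 54.5 CPM in late_MGC, against 48.0 to 93.4 CPM in early_MGC, and was not called (log2 fold change -0.57, adjusted p = 0.067, edgeR). PSMD11, a lid subunit, had 102, 71.2, 134, 81.0 and 81.5 CPM in late_MGC, against 54.0, 61.3, 47.8, 27.2 and 60.1 CPM in early_MGC, also without overlap, and rose by 1.03 ± 0.19 (edgeR, adjusted p = 0.00043).

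Of the other catalytic genes, PSMB5 rose by 0.87 ± 0.25 (edgeR, adjusted p = 0.018) and PSMB6 by 0.73 ± 0.24 (edgeR, adjusted p = 0.035). These calls were not firm: PSMB5 lost its call under 3 alternative settings and PSMB6 under 8. PSMB7 ran from 405 to 732 CPM in late_MGC, against 263 to 521 CPM in early_MGC, and was not called. PSMB10 was at 99.0 to 134 CPM in late_MGC, against 80.8 to 131 CPM in early_MGC (adjusted p = 0.81, edgeR). PSME3 had between 56.8 and 80.3 CPM in late_MGC, against 25.8 to 38.9 CPM in early_MGC, and was higher by 0.99 ± 0.15 without overlap (edgeR, adjusted p = 7e-05). PSME1, PSME2, PSME4 and PSMF1 were not called, with log2 fold changes of 0.52, 0.55, 0.36 and -0.16. Library early_MGC 4, the shallowest, had the lowest PSMB5, PSMB6 and PSMB7 of its group, and late_MGC 1 the highest. Leaving out either one gave 12 called members, in place of 20. Of all tested genes 15.2% were called without early_MGC 4 and 16.6% without late_MGC 1, in place of 19.1%. In this comparison the 4 length bins of genes averaging 20 CPM or more had medians between 0.11 and 0.24, and the length-corrected fit called 28 members, against 21.1% of all tested genes. Of these 27 were higher, including all 20 of before, and PSMB9 was lower at -0.65 (edgeR, adjusted p = 0.0096).

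**Figure D4:**
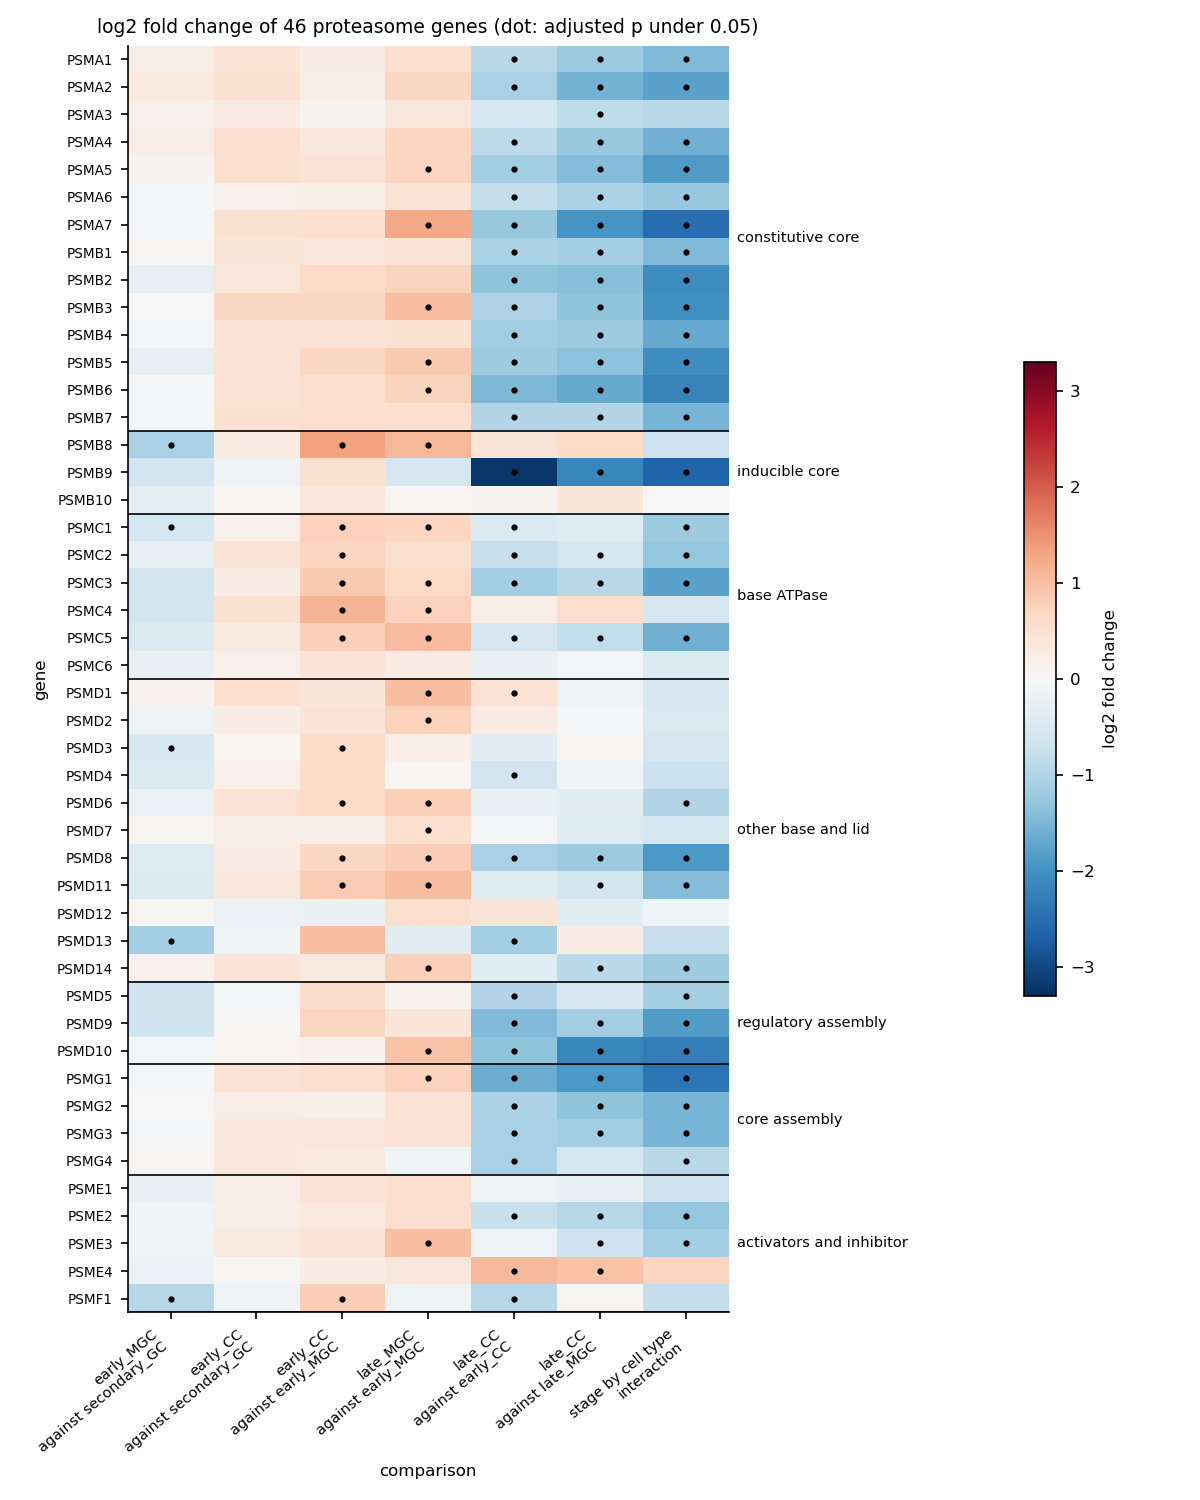
Log2 fold change (colour) of 46 proteasome genes (rows, by class) in 6 comparisons and the stage by cell type interaction (columns); a dot marks an adjusted p under 0.05 in edgeR's quasi-likelihood test. In late_CC against early_CC 30 genes are lower and 2 higher, and in late_MGC against early_MGC 20 genes are higher and none is lower.

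The change with stage differed between the cell types. The interaction, the late_CC minus early_CC change less the late_MGC minus early_MGC change, was negative and called for 31 members and positive and called for none, against 31.4% of all tested genes called and 16.9% called negative. Its median over the members was -1.28, against 0.04 over all tested genes. The interaction also followed exon length. From the shortest to the longest, the 4 length bins of genes averaging 20 CPM or more had medians of -1.20, -0.86, -0.04 and 0.55. Of the 2028 such genes in the length range of the core 49.2% were called negative, with a median of -0.86. It was called for 13 of 14 core genes, 4 of 6 ATPases, 4 of 11 other base and lid genes, all 7 chaperones, PSMB9, PSME2 and PSME3. The largest values were those of PSMB9 at -2.64 ± 0.31 (edgeR, adjusted p = 5.8e-06), PSMA7 at -2.51 ± 0.29 (edgeR, adjusted p = 5.7e-06) and PSMG1 at -2.42 ± 0.31 (edgeR, adjusted p = 8.7e-06). The interaction of PSMB8 was -0.68 (adjusted p = 0.18, edgeR) and that of PSMB10 0.02 (adjusted p = 0.96, edgeR). With length-corrected offsets 27.3% of all tested genes were called. Of the members 26 were called negative, 25 of them the same as before, and PSMB10 was called positive at 0.79 (edgeR, adjusted p = 0.024). Of the 14 core genes 11 were then called, with a median of -1.06.

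Within late antral follicles, cumulus cells were set against mural cells. The comparison shares its libraries with those above, so its values stand beside them and are no separate support. There 28 members were lower and 1 was higher in late_CC than in late_MGC, against 39.7% of all tested genes called and 20.8% called lower, and the median was -0.87. All 14 core genes were lower, with a median log2 fold change of -1.29, but only PSMA7 and PSMB6 among them had no overlap between the groups. Changes in this comparison also followed exon length. From the shortest to the longest, the 4 length bins of genes averaging 20 CPM or more had medians of -1.08, -0.55, -0.01 and 0.36. Of the 2028 such genes in the length range of the core 48.8% were called lower, with a median of -0.55. Over all members 11 had none, against 22.7% of all tested genes. With length-corrected offsets 27 members were called, 22 lower and 5 higher, against 37.2% of all tested genes, and 10 core genes were lower, with a median of -0.70. PSMD10, also known as the oncoprotein gankyrin, had 13.4, 4.22, 13.2, 12.5 and 9.23 CPM in late_CC, against 51.9, 29.97, 38.4, 38.4 and 42.4 CPM in late_MGC, without overlap. It was lower by a log2 fold change of -2.15 ± 0.30 (edgeR, adjusted p = 4.2e-06); 32.3% of its exonic bases are shared with another annotated gene, and counting ignored strand.

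PSMB9 had 8.25 to 17.3 CPM in late_CC, against 30.4 to 54.5 CPM in late_MGC, a log2 fold change of -2.14 ± 0.23 (edgeR, adjusted p = 1.1e-07). PSMA7 had 381, 272, 249, 259 and 297 CPM in late_CC, against 652 to 1237 CPM in late_MGC, a log2 fold change of -1.96 ± 0.21 (edgeR, adjusted p = 1.5e-07). PSME4 was the 1 member called higher, with 104.5 to 134 CPM in late_CC, against 32.9 to 86.8 CPM in late_MGC (log2 fold change 0.95, adjusted p = 0.0042, edgeR), and its call ended in the length-corrected fit (0.47, adjusted p = 0.079, edgeR). PSMB8 at 17.1 to 42.8 CPM in late_CC, against 11.3 to 19.6 CPM in late_MGC, and PSMB10 at 121 to 207 CPM, against 99.0 to 134 CPM, were not called as tested (log2 fold changes 0.65 and 0.40, adjusted p = 0.053 and 0.072, edgeR). Both were higher in the length-corrected fit, at 1.31 and 0.94 (edgeR, adjusted p = 0.0013 and 0.00028). PSME2 was lower at -0.95 and PSME3 at -0.67 as tested, and PSME1 and PSMF1 were not called. In the length-corrected fit PSME3 was lower at -0.88, PSME2 at -0.23 lost its call (adjusted p = 0.13, edgeR), and PSME1 at 0.40 and PSMF1 at 0.50 were called higher (edgeR, adjusted p = 0.048 and 0.018).

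**Figure D5:**
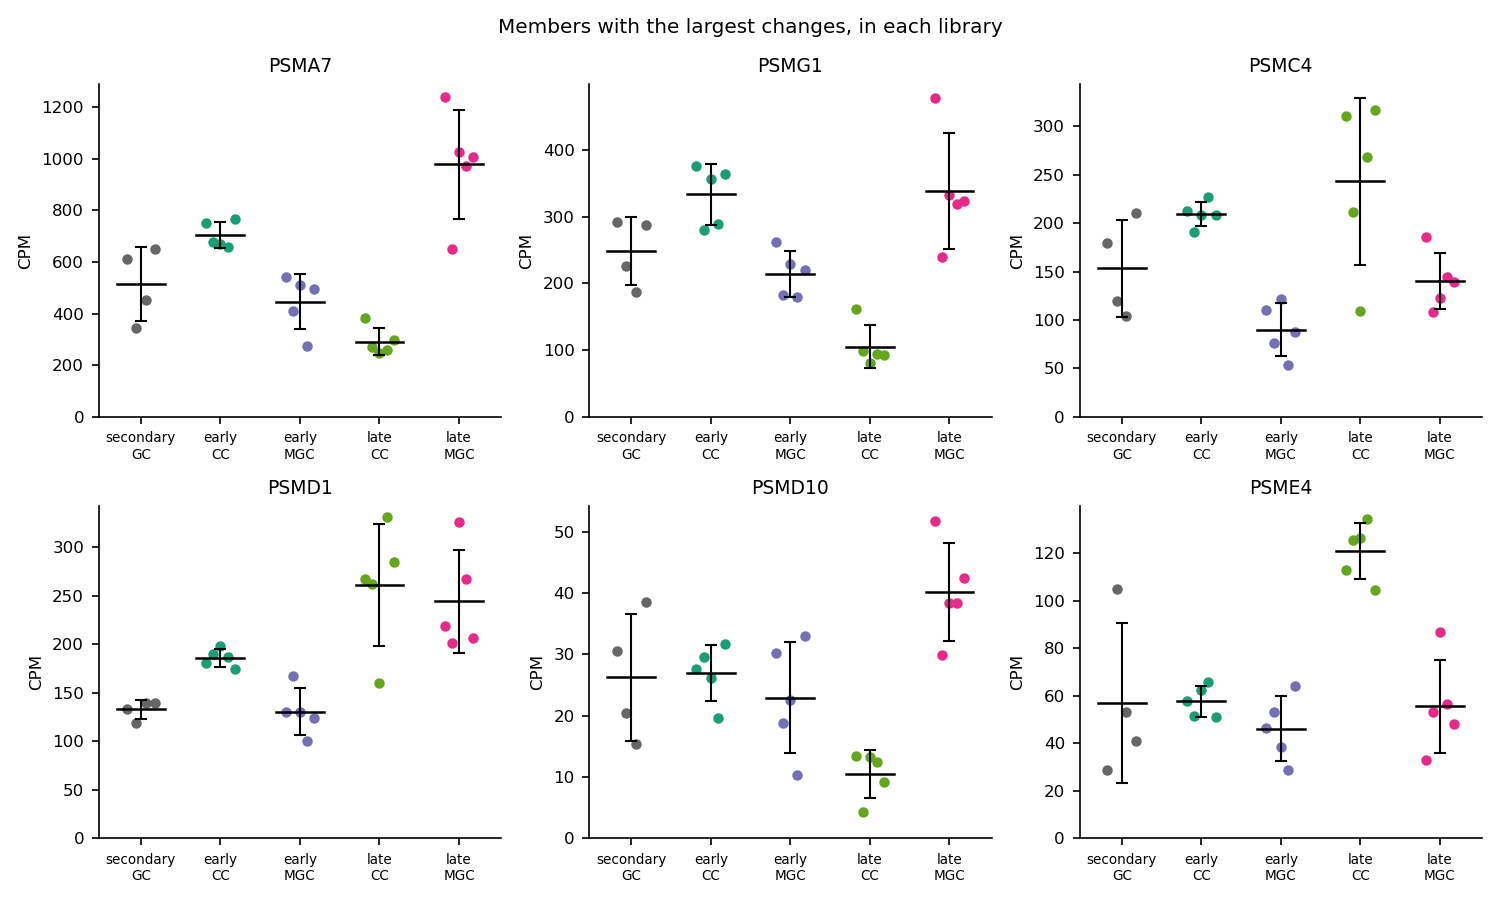
CPM (vertical axes, from 0) of PSMA7, PSMG1, PSMC4, PSMD1, PSMD10 and PSME4 in each library, by group (horizontal axes); points are libraries, and lines with bars are means and SDs. PSMA7 lies between 249 and 381 CPM in late_CC and between 652 and 1237 CPM in late_MGC, and PSME4 between 104.5 and 134 CPM in late_CC.

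Within early antral follicles the members called were all higher in cumulus than in mural cells. In early_CC against early_MGC 11 members rose and none fell, against 13.1% of all tested genes called and 6.7% called higher, and the median was 0.48 against 0.01 over all tested genes. In the regulatory particle 5 of 6 ATPases rose (PSMC1 to PSMC5), with a median log2 fold change of 0.77, and 4 of 11 other base and lid genes (PSMD3, PSMD6, PSMD8 and PSMD11). None of the 14 core genes was called, although all 14 fold changes were above 0, with a median of 0.46, and 8 had no overlap between the groups. Of the 2028 genes averaging 20 CPM or more in the length range of the core 17.2% were called higher, with a median of 0.28. With length-corrected offsets the core median was 0.26, and 1 core gene was called higher. Of the 46 members 30 had no overlap, against 16% of all tested genes.

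PSMC4 had 213, 191, 208, 227 and 208 CPM in early_CC, against 110.5, 75.9, 122, 53.2 and 87.7 CPM in early_MGC. It rose by 1.12 ± 0.25 (edgeR, adjusted p = 0.0052), with every early_CC library higher. PSMC3, an ATPase, had 477, 366, 325, 336 and 443 CPM in early_CC, against 226, 171, 251, 112 and 244 CPM in early_MGC, again without overlap, and rose by 0.86 ± 0.23 (edgeR, adjusted p = 0.014). PSMB8 had 10.6 to 25.9 CPM in early_CC, against 5.49 to 9.86 CPM in early_MGC, and rose by 1.33 ± 0.27 (edgeR, adjusted p = 0.0026). PSMF1 ran from 46.2 to 62.3 CPM in early_CC, against 14.9 to 44.6 CPM in early_MGC, and rose by 0.82 ± 0.22 (edgeR, adjusted p = 0.015). PSMB5, PSMB6, PSMB7, PSMB9, PSMB10 and PSME1 to PSME4 were not called, with log2 fold changes from 0.24 to 0.69. The length-corrected fit also called 11 members higher, 9 of them the same, against 13.6% of all tested genes called. With early_CC and early_MGC alone in the fit 23 members were called, against 23.4% of all tested genes.

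Against secondary_GC, few members were called. In early_MGC 5 members fell and none rose, against 9.1% of all tested genes called and 4.08% called lower. They were PSMD13, PSMB8, PSMF1, PSMC1 and PSMD3, and no core gene was among them. The core median was -0.01. With length-corrected offsets 2 members were called lower, against 9.53% of all tested genes called, and only 1 of them was among these 5. Those 2 were 1 inducible core gene and 1 of the activators and inhibitor. PSMB8 had 9.2, 9.86, 5.51, 5.49 and 6.62 CPM in early_MGC, against 20.2, 15.2, 13.96 and 18.9 CPM in secondary_GC, without overlap, and fell by 1.07 ± 0.28 (edgeR, adjusted p = 0.02). PSMF1 had 31.4, 20.1, 28.5, 14.9 and 44.6 CPM in early_MGC, against 51.1, 52.9, 47.1 and 79.4 CPM in secondary_GC, and fell by 0.93 ± 0.23 (edgeR, adjusted p = 0.013). PSMD13, a lid subunit that shares 23% of its exonic bases with COX8B, had 20.5, 8.39, 25.5, 13.6 and 24.8 CPM in early_MGC, against 43.9, 32.6, 27.4 and 75.8 CPM in secondary_GC, and fell by 1.12 ± 0.35 (edgeR, adjusted p = 0.044).

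These calls were close to the threshold: without secondary_GC 4 no member was called, and without any other single library of either group between 2 and 6 were. Calls over all genes also changed. Of all tested genes 3.56% were called without secondary_GC 4, and 5.58% to 10.4% without any other of these libraries. PSMB9 had 48.0 to 93.4 CPM in early_MGC, against 97.5 to 137 CPM in secondary_GC, without overlap, and was not called (log2 fold change -0.62, adjusted p = 0.084, edgeR). In early_CC against secondary_GC edgeR called no member, while 1.99% of all tested genes were called. At an unadjusted p under 0.05 there were 5 members, against 16.5% of all tested genes, and DESeq2 and limma-voom called none. For 10 members, 9 of them core genes, no early_CC library overlapped the secondary_GC range, against 10.3% of all tested genes. The members' median was 0.29, against 0.01 over all tested genes, and all 14 core genes had fold changes above 0.

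Genes that work with the proteasome changed in both directions. Of 16 partner genes, in late_CC against early_CC, where 45.2% of all tested genes were called, 4 rose and 6 fell, or 4 and 3 with length-corrected offsets. In late_MGC against early_MGC 2 rose and 1 fell in both fits, against 19.1% and 21.1% of all tested genes called. NFE2L1, the transcription factor known in mammals to raise proteasome gene expression when the proteasome is impaired, rose in both, by 1.04 ± 0.19 in late_CC (542 CPM in late_CC, against 262 CPM in early_CC) and by 0.66 ± 0.18 in late_MGC (391 CPM in late_MGC, against 267 CPM in early_MGC; edgeR, adjusted p = 7.8e-05 and 0.014). With length-corrected offsets its values were 0.49 and 0.70 (edgeR, adjusted p = 0.011 and 0.0016). POMP, the chaperone that matures the core, fell by 0.79 ± 0.22 in late_CC against early_CC (edgeR, adjusted p = 0.0045), and was not called in the length-corrected fit (-0.14, adjusted p = 0.53, edgeR). ADRM1, a ubiquitin receptor of the base, fell by 1.05 ± 0.20 in late_CC (edgeR, adjusted p = 0.00017) and by 0.53 in the length-corrected fit (edgeR, adjusted p = 0.021). USP14, a deubiquitinase that binds the particle, rose by 0.78 ± 0.17 in late_MGC against early_MGC (edgeR, adjusted p = 0.0027).

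Of 15 ubiquitin and delivery genes, 4 rose and 6 fell in late_CC against early_CC, but only 1 rose and 3 fell with length-corrected offsets. Over all tested genes 45.2% were called, or 39% with length-corrected offsets. UBB, 1 of the genes that encode ubiquitin, averaged 1206 ± 449 CPM in late_CC and 4896 ± 626 CPM in early_CC (SD, n = 5 each) and fell by 2.01 ± 0.35 (edgeR, adjusted p = 6.3e-05), or by 1.30 with length-corrected offsets (edgeR, adjusted p = 0.00066). VCP, the segregase that extracts ubiquitinated proteins, rose by 0.45 ± 0.18 (edgeR, adjusted p = 0.046), and was not called in the length-corrected fit (adjusted p = 0.35, edgeR). UBA1, the main ubiquitin-activating enzyme, rose by 0.83 ± 0.18 in late_MGC against early_MGC (edgeR, adjusted p = 0.0022).

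Of 15 antigen processing and interferon genes 12 were tested. In late_CC against early_CC 2 rose and none fell, against 45.2% of all tested genes called. For late_CC against late_MGC 4 rose and none fell, against 39.7% of all tested genes called. For late_MGC against early_MGC 2 rose and 3 fell, against 19.1%. In late_CC against early_CC TAPBP and ERAP1, which act in the loading of peptides onto class I molecules, rose by 1.15 ± 0.17 and 1.64 ± 0.24 (edgeR, adjusted p = 8.6e-06 and 9.9e-06), and both were also called in the length-corrected fit. TAP1, the peptide transporter subunit, averaged 10.99 CPM in late_CC and 10.88 CPM in early_CC (log2 fold change 0.01, adjusted p = 0.99, edgeR). IRF1, an interferon-response transcription factor known to drive the inducible catalytic genes, fell by 3.26 ± 0.52 in late_MGC against early_MGC (edgeR, adjusted p = 0.00016). IRF1 averaged 6.48 ± 3.74 CPM in late_MGC and 71.9 ± 75.0 CPM in early_MGC (SD, n = 5 each), so its early_MGC libraries differed widely. In late_CC against early_CC IRF1 was not called, with a log2 fold change of -0.53 (adjusted p = 0.38, edgeR). Whether IRF1 has a part in the levels of PSMB8, PSMB9 or PSMB10 here was not tested.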

How the data were processed

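The deposited counts are reads per gene from featureCounts 2.0.0, summed over exons of Ensembl release 105 (ARS-UCD1.2), per the file headers, which show no strand option. Upstream tools were fastp 0.20.0, HISAT2 2.1.0 and SAMtools 1.10, per the submitters' processing notes. Libraries were made with a low-input full-length cDNA kit and transposase, per the labels' protocols. The deposited table also gives each gene's summed exon length, used for TPM, ratios and length bins.

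Symbols came from RefSeq (ARS-UCD2.0) by position: 44 members by an overlap of spans of at least 0.5 of their union, 4 (PSME1, PSME2, PSME3 and PSMB11) by at least 80% of exonic bases inside the RefSeq gene. After a shift of 1000000 bases, 8.22% of genes averaging 1 CPM or more were still named, so a name can be wrong. No column was left unused, but 41567882 undetermined reads entered no test.

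Counts were tested with edgeR 4.0.16 (R 4.3.3; quasi-likelihood, TMM, filterByExpr, robust), all 24 libraries in 1 fit, after tests on simulated data. SEs are those implied by the test; the biological coefficient of variation was 42.4%. A p was adjusted by Benjamini-Hochberg over the 14298 genes, in each of 7 comparisons, and called under 0.05. Alternatives were RLE scaling, no filter, limma-voom 3.58.1, DESeq2 1.42.0, the compared groups alone, length-corrected offsets, leaving out 3 libraries or each in turn, and a replicate block. Columns of secondary_GC and late_MGC do not carry the numbers of the sample titles and are numbered by column order. No pair of libraries was a copy (lowest chi-square per degree of freedom 17.4). Limits and intervals cover counting error only.

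The members and lists were chosen with earlier results of these data known. Named genes are the catalytic, inducible, germline and thymus, activator and inhibitor genes, and the up to 3 called members with the largest rise and fall per comparison; other members are given as counts or as examples chosen after their values were seen.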

Additional observations from a re-analysis of the deposited data

Results flagged for a closer look

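In 12 of 145 groups of values a single library lay far from the rest of its group; chance alone gives about 1 in 20. PSMB10 was at 117 CPM in early_CC 1, against 160.1 to 172 CPM in the other early_CC libraries, and at 134 CPM in late_MGC 3, against 99.0 to 108 CPM. PSME1 was at 257 CPM in early_MGC 4, against 396 to 437 CPM in its group. PSME3 was at 80.3 CPM in late_MGC 3, against 56.8 to 61.3 CPM, and PSMG1 at 161 CPM in late_CC 1, against 79.9 to 98.1 CPM. The other base and lid genes summed to 760.5 CPM in early_MGC 4, against 1183 to 1322 CPM, and to 979 CPM in late_CC 3, against 1516 to 1706 CPM. The core chaperones summed to 972 CPM in early_CC 4, against 1033 to 1043 CPM. PSMB8 per 100 of PSMB5 was 40.1 in late_CC 3, against 9.27 to 15.2, and 8.09 in late_MGC 3, against 2.52 to 3.9. PSMB10 per 100 of PSMB7 was 15.3 in early_CC 1, against 21.8 to 23.6, and 91.4 in late_CC 3, against 34.6 to 38.3.

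The change from early to late antral follicles differed between cumulus and mural cells for 31 members by the interaction test, against 31.4% of all tested genes. Among the members given in full it was -2.64 for PSMB9, -2.51 for PSMA7, -2.42 for PSMG1, -2.20 for PSMB6, -2.04 for PSMB5, -1.53 for PSMB7, -1.28 for PSME2 and -1.12 for PSME3 on the log2 scale. In the undetermined reads, which belong to no sample, the members summed to 12780 CPM.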

How the results depend on the processing

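Of 131 counts of called members under an alternative, 113 stayed within 1.5 times the main count and 18 did not. Against secondary_GC, early_MGC had 2 calls without the filter, 2 with length-corrected offsets and 3 with the compared groups alone, in place of 5. Of all tested genes 4.15%, 9.53% and 7.75% were called in those fits, in place of 9.1%. Against secondary_GC, early_CC had 1 call without the 3 libraries that stood apart and 3 with the compared groups alone, in place of 0. There 9.2% and 7.2% of all tested genes were called, in place of 1.99%. The compared groups alone gave 11 calls for late_MGC against early_MGC, in place of 20, and 23 for early_CC against early_MGC, in place of 11. Length-corrected offsets gave 20 calls for late_CC against early_CC, in place of 32, against 39.0% and 45.2% of all tested genes called. They reversed the sign of PSME1 in late_CC against early_CC (0.59, adjusted p = 0.0048, edgeR) and against late_MGC (0.40, adjusted p = 0.048, edgeR), and of PSME2 in late_CC against early_CC (0.065, adjusted p = 0.69, edgeR). The offsets are themselves an estimate, and the cause of the length trend was not tested.

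Leaving out each library gave 0 to 6 calls for early_MGC against secondary_GC, 0 for early_CC against secondary_GC in every case, 12 to 26 for late_MGC against early_MGC, 29 to 32 for late_CC against early_CC, 8 to 12 for early_CC against early_MGC, 28 to 31 for late_CC against late_MGC and 29 to 34 for the interaction. The lowest values came without secondary_GC 4 (0), and without early_MGC 4 or late_MGC 1 (12 each). In that order, 3.56%, 15.2% and 16.6% of all tested genes were then called.

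The replicate block could be fitted over early_CC, early_MGC and late_CC only. It gave 17 calls for early_CC against early_MGC and 35 for late_CC against early_CC. The same 3 groups without the block, a fit added after seeing the data, gave 16 and 34. Of all tested genes 19.9% and 51.8% were called with the block, and 19.4% and 51.9% without it. Whether the numbers pair the libraries could not be decided. Deviations of same-numbered libraries correlated between -0.131 and 0.209 over 15 pairs, and those of differently numbered libraries between -0.198 and 0.199. The pairs of number 1 were at 0.209, 0.174 and 0.178.

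Of the values of single named members, 1562 kept direction and side of the threshold, 57 passed it, 33 no longer did and 3 reversed. TMM scaling of the library totals moved 1 of 45 class sums by over 1 SD, that of the core chaperones in early_CC (982 CPM). Among the catalytic genes the fewest reads lie behind PSMB9 in late_CC (936 counts in all) and PSMB8 in early_MGC (570 counts in all).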
